A study of Mus musculus with 24 samples.

Results

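Glutamate is the transmitter of photoreceptors, bipolar cells and ganglion cells, and the transporters that load it into vesicles and clear it from the extracellular space were examined in mouse retinal organoids (MROs). The 8 genes were chosen by name, as the rows of the count tables whose Ensembl identifier carries the symbol Slc1a1, Slc1a2, Slc1a3, Slc1a5, Slc1a7, Slc17a6, Slc17a7 or Slc17a8, and they are 8 of the 46603 annotated genes listed. MROs were grown from the mouse embryonic stem cell line E14Tg2a by cutting each aggregate into parts during early culture (the trisection protocol), with a short exposure to the synthetic retinoid EC23 that all organoids share. The genotype label of every sample is "Control" and its tissue label "retina", and only water was given as solvent. Sample titles of D22, D25 and D30 carry "Ctrl" and those of D20 do not, and what this mark stands for is not stated. Any difference in handling behind it cannot be told apart from day in comparisons with D20. Single whole organoids were sequenced on day (D) 20, D22, D25 and D30 of differentiation, with 6 organoids per timepoint and 24 in all, from 1 independent experiment, so that the p-values below measure the spread between organoids of that experiment and not between differentiations.

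The vesicular glutamate transporters (VGLUTs, the Slc17a6 to Slc17a8 genes) use the proton gradient across the vesicle membrane to concentrate glutamate for release. In the mature retina VGLUT1 is known from photoreceptors and bipolar cells, VGLUT2 from ganglion cells and VGLUT3 from a class of amacrine cells. The excitatory amino acid transporters (EAATs), of which the Slc1a1, Slc1a2, Slc1a3 and Slc1a7 genes are examined here and Slc1a6 (EAAT4) is given with the other glutamate genes below, use the sodium gradient to take glutamate up from outside the cell, and ASCT2 (Slc1a5), from the same gene family, exchanges neutral amino acids such as glutamine. Müller glia, the radial glia of the retina, take up most of the glutamate released there and turn it into glutamine with glutamine synthetase (Glul).

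Each organoid gave 13634846 to 19477108 counted reads, and 3 reads correspond to 0.154 to 0.22 CPM (a gene's reads divided by the library total and scaled to a common size). Levels are given as normalized CPM, that is, CPM after the composition of the libraries was balanced (TMM scaling), and changes as log2 fold changes with their standard error (SE) and a Benjamini-Hochberg adjusted p from edgeR's quasi-likelihood test over 46949 features, with an adjusted p below 0.01 counted as a change. All 4 markers of retina (Rax, Pax6, Otx2, Crx) had more than 3 reads in each of the 24 organoids. Their summed level had medians of 1815, 2048, 1805 and 1205 normalized CPM over the 4 days. Rax (log2 fold change -1.15, edgeR adjusted p = 4.967e-08), Pax6 (-1.44, adjusted p = 1.467e-09) and Otx2 (-1.52, adjusted p = 1.316e-12) were lower at D30 than at D20. Crx did not pass between those days (0.26, adjusted p = 0.03611). Genes typical of cerebral cortex neurons were also present, and their summed level ran from 1.35 to 257.9 normalized CPM, with the highest organoid of each timepoint at 189.1 (D20 replicate 6), 12.2 (D22 replicate 6), 257.9 (D25 replicate 1) and 225.4 (D30 replicate 5). Of the 5 genes summed, Neurod6 had the highest mean on each day (40.0, 3.41, 76.0 and 93.7 normalized CPM). The authors describe Neurod6 as a gene of postmitotic amacrine cells, and the part of retinal cells in this sum was not tested. Because whole organoids were lysed, more cells of a type and more RNA per cell cannot be told apart in any of the changes below.

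The 3 promoters shown here belong to the main vesicular transporter of these MROs, to its variable counterpart Slc17a6, and to the glial uptake transporter Slc1a3, which had the largest change. Each sequence is the 250 bases before the RefSeq transcription start in the GRCm38.p6 build, read 5′ to 3′ in the direction of transcription, and lies outside the annotated exons of its own gene. Capitals mark GC boxes (GGGCGG, or CCGCCC on the other strand) and, in Slc1a3, also a TATA box (TATAAA, here as TTTATA on the other strand). The Slc17a7 promoter is at chr7:45163671-45163920 on the plus strand, the Slc17a6 promoter of the start further upstream at chr7:51621580-51621829 on the plus strand and the Slc1a3 promoter at chr15:8710808-8711057 on the minus strand.
Slc17a7: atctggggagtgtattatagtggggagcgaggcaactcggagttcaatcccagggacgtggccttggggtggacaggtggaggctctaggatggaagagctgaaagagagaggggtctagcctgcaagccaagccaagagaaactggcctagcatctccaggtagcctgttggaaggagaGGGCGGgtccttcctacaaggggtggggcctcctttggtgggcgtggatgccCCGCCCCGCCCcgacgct
Slc17a6: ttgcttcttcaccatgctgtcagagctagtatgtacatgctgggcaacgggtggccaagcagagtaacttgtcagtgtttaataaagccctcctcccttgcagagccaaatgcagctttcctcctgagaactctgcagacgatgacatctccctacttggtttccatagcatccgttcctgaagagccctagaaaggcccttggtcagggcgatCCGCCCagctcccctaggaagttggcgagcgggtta
Slc1a3: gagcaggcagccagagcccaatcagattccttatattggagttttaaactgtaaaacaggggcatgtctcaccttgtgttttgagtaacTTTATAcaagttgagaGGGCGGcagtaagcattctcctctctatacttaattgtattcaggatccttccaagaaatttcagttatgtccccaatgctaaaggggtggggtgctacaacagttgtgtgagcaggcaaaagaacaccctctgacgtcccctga
GC content was 61.2% for Slc17a7 with 9 CpG, 53.2% for Slc17a6 with 7 CpG and 44.8% for Slc1a3 with 2 CpG, against a median of 52.4% over all promoters of the RefSeq set. Slc17a7 held 3 GC boxes, which begin 70, 18 and 13 bases before the start and of which the last 2 overlap, Slc17a6 held 1 at 36 bases, and Slc1a3 held 1 at 145 bases beside the TATA box at 161 bases. A second Slc17a6 window, before another RefSeq start at chr7:51624387-51624636, had 41.2% GC and 3 CpG and held neither box. A GC box stood in 32.7% and a TATA box in 12.4% of the 32851 promoters. The letters TAATCC (bound by the photoreceptor factors CRX and OTX2), CAGCTG (an E-box) and TGCTGA (the core of the element bound by the rod factor NRL), which stand in 6.25%, 13.0% and 16.1% of all promoters on either strand, were not in any of the 9 windows that matched 7 of the 8 genes. These matches are descriptions of letters only.

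Slc17a7, encoding VGLUT1 (chromosome 7, 45163949 to 45176142, plus strand of GRCm38), rose over the first 2 steps. It lay between 29.4 and 37.9 normalized CPM at D20 (median 32.2), between 39.1 and 78.2 at D22 (median 51.6), between 113.7 and 165.2 at D25 (median 142.3) and between 136.8 and 230.9 at D30 (median 209). Every D22 organoid was above every D20 organoid, and every D25 organoid above every D22 organoid, while the D30 and D25 ranges overlapped. The log2 fold change was 0.73 (SE 0.145, edgeR adjusted p = 0.002408) from D20 to D22 and 1.34 (SE 0.145, adjusted p = 6.38e-07) from D22 to D25. From D25 to D30 it was 0.48 (SE 0.142), which missed the threshold (adjusted p = 0.03376). Over the whole interval from D20 to D30 the mean went from 33.0 ± 3.75 to 194 ± 38.5 normalized CPM (SD, n = 6 each), 5.86-fold, with a log2 fold change of 2.55 (SE 0.151, edgeR adjusted p = 3.278e-14). The D22 call was lost without D22 replicate 3, which had the highest Slc17a7 of its day. The log2 fold change from D20 to D22 was then 0.59 with an adjusted p of 0.0144. Over all tested features, those called higher in that step went from 760 to 391 without this organoid. Without D30 replicate 1, the lowest D30 organoid, the D25 to D30 difference became 0.58 with an adjusted p of 0.007937.

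Slc17a6, encoding VGLUT2 (chromosome 7, 51622006 to 51671119, plus strand), was lower and far more variable. Its values lay between 5.17 and 11.4 normalized CPM at D20 (median 7.5), between 2.81 and 7.68 at D22 (median 5.18), between 3.15 and 19.3 at D25 (median 11.1) and between 3.07 and 31.5 at D30 (median 16.7). All 4 ranges overlapped, and the organoids of a day grew apart: the highest D30 organoid was 10.25 times the lowest, and the coefficient of variation went from 35.8% and 41.1% on the first 2 days to 55.0% and 68.9% on the last 2 (n = 6 each). No consecutive step passed the test, with log2 fold changes of -0.61 (SE 0.422), 1.05 (SE 0.42) and 0.53 (SE 0.407) and edgeR adjusted p-values of 0.4903, 0.1096 and 0.5685. D30 against D22 passed, at 1.58 (SE 0.422, adjusted p = 0.004373), and D30 against D20 did not, at 0.97 (SE 0.413, adjusted p = 0.06465). The D30 against D22 call was lost, at 1.26 to 1.52 with adjusted p-values of 0.0111 to 0.0213, without any 1 of D22 replicates 3, 4 and 5 or D30 replicates 2 and 3.

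The spread of Slc17a6 was set beside 2 marker lists that could carry VGLUT2. The summed ganglion cell markers (Pou4f1, Pou4f2, Isl2, Sncg, Rbpms) had medians of 100.4, 65.2, 26.6 and 8.8 normalized CPM over the 4 days, so they were lowest on the day with the highest Slc17a6 median. The summed cortex type neuron markers (Tbr1, Emx1, Emx2, Neurod2, Neurod6) were highest in D25 replicate 1, which also had the highest Slc17a6 of D25 (19.3 normalized CPM), and in D20 replicate 6, which had the highest of D20 (11.4). At D22 the highest organoids were different ones, replicate 6 for the markers (12.2) and replicate 2 for Slc17a6 (7.68). At D30 replicate 5 had the highest cortex markers (225.4) and the lowest Slc17a6 (3.07), and replicate 3 had the highest Slc17a6 (31.5) with cortex markers of 24.2. With the highest cortex-marker organoid of each day left out, D30 against D20 was 1.31 with an adjusted p of 0.0102, still short of the threshold. The part of either cell type in the level of Slc17a6 was not tested.

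**Figure D1:**
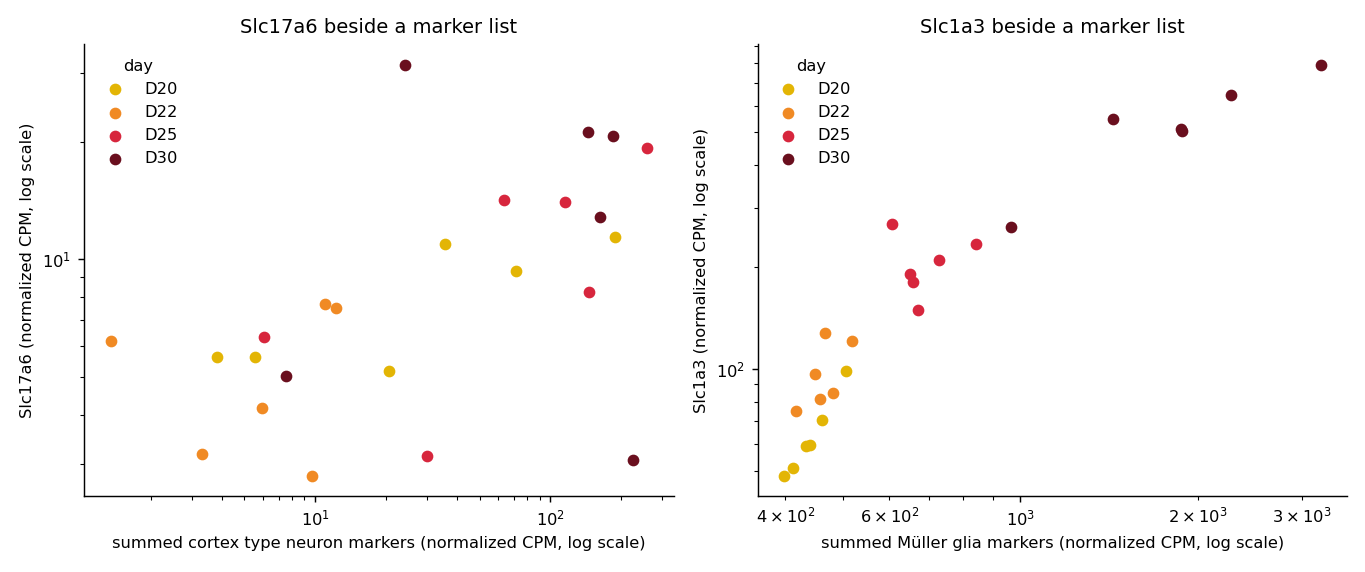
Each point is 1 of the 24 organoids, colored by day, on log axes in normalized CPM. Left, Slc17a6 against the summed cortex type neuron markers, with D30 replicate 5 at the lower right (225.4 and 3.07). Right, Slc1a3 against the summed Müller glia markers, with D30 replicate 1 highest on both axes (3224 and 793) and D30 replicate 6 the lowest D30 organoid on both (966 and 262).

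Slc17a8, encoding VGLUT3 (chromosome 10, 89574020 to 89621253, minus strand), was near the limit of detection. It had 0 to 102 reads per organoid, with 0 reads in D20 replicate 4 and in D22 replicate 2, where 3 reads would have been 0.19 to 0.22 CPM. Its medians over the 4 days were 0.659, 0.232, 1.21 and 2.86 normalized CPM, and the 4 ranges overlapped (0 to 1.51, 0 to 3.39, 0.475 to 3.54 and 1.04 to 5.82). D30 against D20 gave a log2 fold change of 2.31 (SE 0.746) with an edgeR adjusted p of 0.0145, short of the threshold. The D20 to D22 difference of 0.27 (SE 0.771, adjusted p = 0.9044) had its sign from D22 replicate 6 alone, and without that organoid it was -1.36 with an adjusted p of 0.3516. D30 against D20 passed when D20 replicate 3 (2.76, adjusted p = 0.008783), D22 replicate 2 (2.31, adjusted p = 0.009366) or D22 replicate 6 (2.31, adjusted p = 0.004224) was left out, when genes of low count were kept in the fit (2.32, adjusted p = 0.006094) and with only the D20 and D30 organoids in the fit (2.31, adjusted p = 0.004232).

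Set side by side per kb of exon, which makes levels of different genes comparable, Slc17a7 carried most of the vesicular transporter RNA at every timepoint. From the earliest day to the latest its share of the 3 genes was 79.4% ± 4.98, 89.5% ± 5.79, 91.4% ± 4.57 and 90.5% ± 5.63 (SD, n = 6 each), while Slc17a6 held 18.8% ± 5.12, 8.93% ± 3.72, 7.22% ± 3.81 and 7.65% ± 5.23. The sum of the 3 genes was 7.75 ± 1.07, 11.3 ± 2.59, 28.1 ± 3.43 and 39.5 ± 6.48 normalized CPM per kb. The log2 ratio of Slc17a7 to Slc17a6 counts within an organoid, which does not depend on how libraries are scaled, moved from 2.11 ± 0.466 at D20 to 3.44 ± 0.785 at D22, a difference of 1.33 (exact two-sided permutation test, p = 0.00649, adjusted over 12 such tests p = 0.0156). It then was 3.89 ± 1.06 at D25 and 4.0 ± 1.48 at D30, and neither of those steps was past 0.05 (exact permutation adjusted p = 0.583 and 0.896). Between D20 and D30 the ratio rose by 1.895 (exact permutation p = 0.002165, adjusted p = 0.006494). At D30 it ran from 2.72 to 6.22, and its SD between organoids was the largest of the 4 days.

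**Figure D2:**
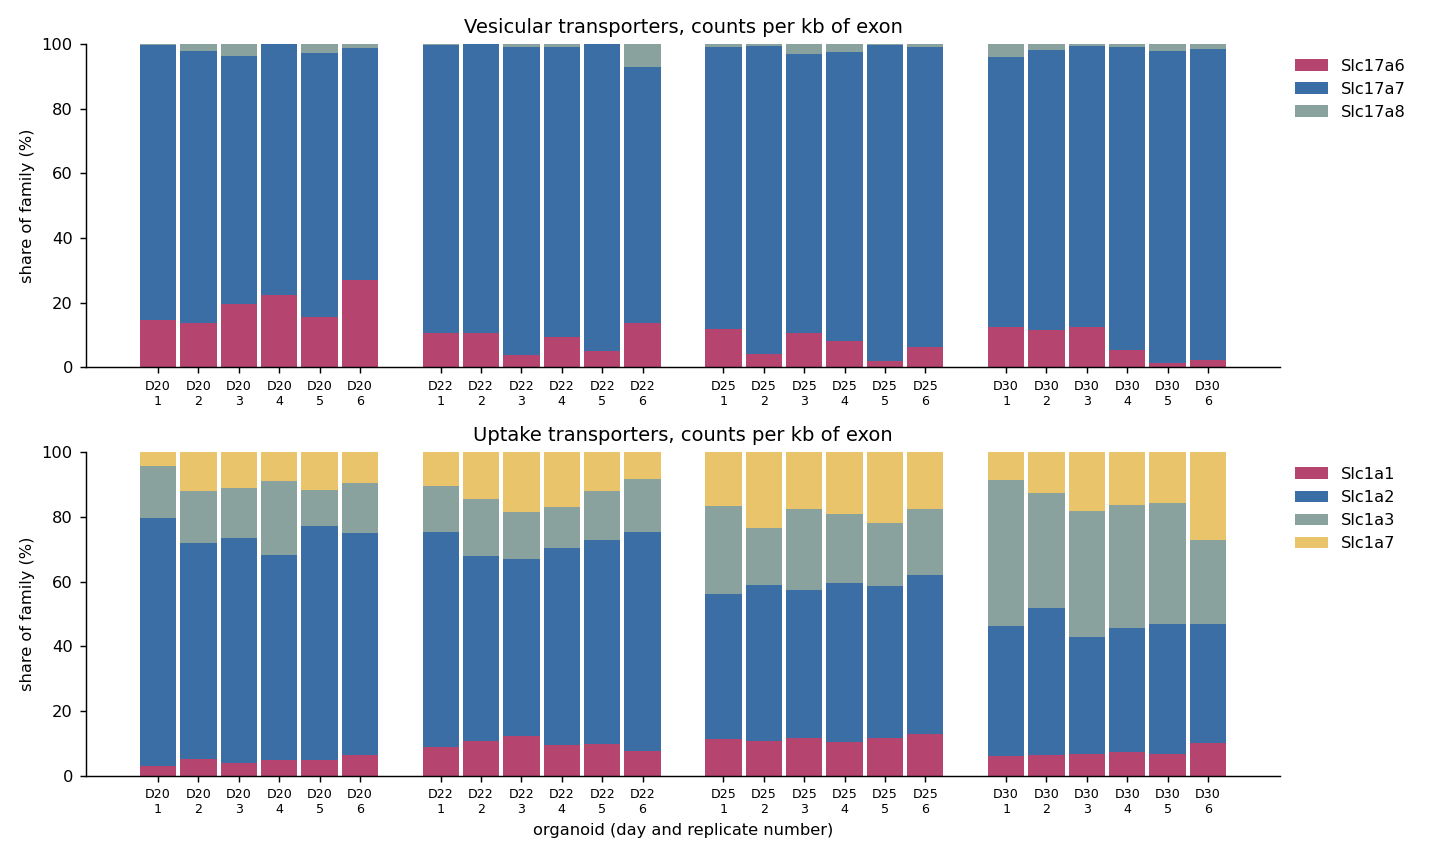
Stacked bars give, for each of the 24 organoids, the share (%) of counts per kb of exon held by each vesicular transporter (top) and each of Slc1a1, Slc1a2, Slc1a3 and Slc1a7 (bottom). Slc17a7 holds most of the top bars at every day, and in the lower bars the Slc1a2 share goes from a mean of 69.6% at D20 to 39.5% at D30 while the Slc1a3 share goes from 16.2% to 36.9%.

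Slc1a3, encoding EAAT1 (GLAST), the main uptake transporter of Müller glia (chromosome 15, 8634124 to 8710764, minus strand), had the largest log2 fold change of the 8 genes between D20 and D30. It lay between 48.4 and 98.4 normalized CPM at D20 (median 59.3), between 74.9 and 127 at D22 (median 90.8), between 149.6 and 268 at D25 (median 200.2) and between 262 and 793 at D30 (median 529). D20 and D22 overlapped, every D25 organoid was above every D22 organoid, and 5 of the 6 D30 organoids were above the highest of D25. The first step missed the threshold, with a log2 fold change of 0.60 (SE 0.191, edgeR adjusted p = 0.0661), and the next 2 passed it, with 1.07 (SE 0.192, adjusted p = 0.0003812) and 1.41 (SE 0.192, adjusted p = 1.056e-05). From D20 to D30 the mean went from 64.6 ± 18.3 to 544 ± 176 (SD, n = 6 each), 8.43-fold, or 3.07 on the log2 scale (SE 0.205, adjusted p = 4.324e-13).

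Markers of glia were set beside Slc1a3. The summed Müller glia list (Rlbp1, Glul, Aqp4, Car2, Apoe), of which all 5 genes had more than 3 reads in every organoid, had ranges of 399 to 507 (D20), 417 to 518 (D22), 607 to 842 (D25) and 966 to 3224 normalized CPM (D30). D30 replicate 6 was lowest of its day in this sum, in Slc1a3 (262) and in Slc1a2 (576), and D30 replicate 1 was highest in all 3 (3224, 793 and 1095). Its members did not move alike. At D30 the sum was carried mainly by Apoe (1127 ± 512 normalized CPM, against 288 ± 64.2 at D25), which rose from D25 to D30 by 1.97 on the log2 scale (edgeR adjusted p = 7.933e-08), as did Aqp4 by 2.77 (adjusted p = 5.974e-05). Rlbp1 (0.43, adjusted p = 0.2506) and Car2 (0.60, adjusted p = 0.0261) did not pass in that step. From D20 to D25 Slc1a3 rose by 1.67, and Rlbp1 rose by 1.501 (edgeR adjusted p = 2.126e-06). Car2 rose by 1.587 (adjusted p = 4.455e-08) and Apoe by 0.7871 (adjusted p = 0.003497) over the same days. Aqp4 (1.284, adjusted p = 0.02351) and Glul (-0.21, adjusted p = 0.3095) did not pass from D20 to D25. A list for astrocytes and oligodendrocytes (Aldh1l1, Sox10, Mbp, Mog) ran from 23.1 to 35.2 normalized CPM over D20, D22 and D25. At D30 it ran from 13.0 to 76.4, again with replicate 6 lowest and replicate 1 highest. Sox10 and Mog of this list had 3 reads or fewer in every D22 organoid. Its members also went different ways from D20 to D30: the astrocyte enzyme gene Aldh1l1 went from 1.17 ± 2.06 to 18.3 ± 15.3 normalized CPM (3.95 on the log2 scale, SE 0.821, edgeR adjusted p = 0.000277) and Sox10 from 0.0892 ± 0.13 to 2.47 ± 2.84 (adjusted p = 0.0002552), while the myelin gene Mbp, most of the sum at D20, fell by 0.80 (adjusted p = 0.0001173). The part of any of these cells in the Slc1a3 level was not tested.

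Slc1a2, encoding EAAT2 (GLT-1), known from retinal cones and bipolar cells and from astrocytes in the brain (chromosome 2, 102658659 to 102790784, plus strand), had the highest median per kb of exon of the 8 genes on every day and the smallest log2 fold change among the 5 that rose from D20 to D30. It lay between 378.1 and 481 normalized CPM at D20 (median 417), between 538 and 699 at D22 (median 608), between 627 and 740.3 at D25 (median 667) and between 576 and 1095 at D30 (median 892). Every D22 organoid was above every D20 organoid, and at D30 the organoids spread to both sides of the D25 range, 5 above it and 1 below. The step from D20 to D22 was 0.51 on the log2 scale (SE 0.11, edgeR adjusted p = 0.005195), and the next 2 steps, 0.16 (SE 0.11, adjusted p = 0.3925) and 0.38 (SE 0.11, adjusted p = 0.02974), did not pass. D30 against D20 was 2.07-fold by the means, or 1.05 (SE 0.111, adjusted p = 6.611e-09). The D22 call was lost, with adjusted p-values of 0.0115 to 0.0253 and log2 fold changes of 0.45 to 0.50, when any 1 of D20 replicates 1 to 4, D22 replicates 2, 3 and 5 or D25 replicate 6 was left out. Without D30 replicate 6 the D25 to D30 difference was 0.48 and passed (adjusted p = 0.000918). An antisense gene, Gm13872, shares exon bases with Slc1a2 and had 422 reads in all against 245740 for Slc1a2.

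The balance between these 2 transporters shifted from Slc1a2 to Slc1a3. Their log2 ratio within an organoid averaged 2.76 ± 0.389, 2.65 ± 0.207, 1.74 ± 0.274 and 0.74 ± 0.265 (SD, n = 6 each) in the order of the days. D22 and D20 overlapped, with a difference of -0.10 (exact permutation p = 0.582, adjusted p = 0.699). Neither D25 overlapped with D22 nor D30 with D25, and the differences of -0.91 and -1.01, as well as -2.02 for D30 against D20, each had an exact permutation p of 0.00216, the smallest that 6 against 6 organoids allow, and an adjusted p of 0.00649. The mean per-kb share of Slc1a2 among Slc1a1, Slc1a2, Slc1a3 and Slc1a7 went through 69.6% ± 4.59, 61.6% ± 5.15, 47.3% ± 1.84 and 39.5% ± 3.31 over the same days, while their summed level was 46.7 ± 5.88, 75.7 ± 13.9, 109 ± 5.82 and 169 ± 32.2 normalized CPM per kb.

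**Figure D3:**
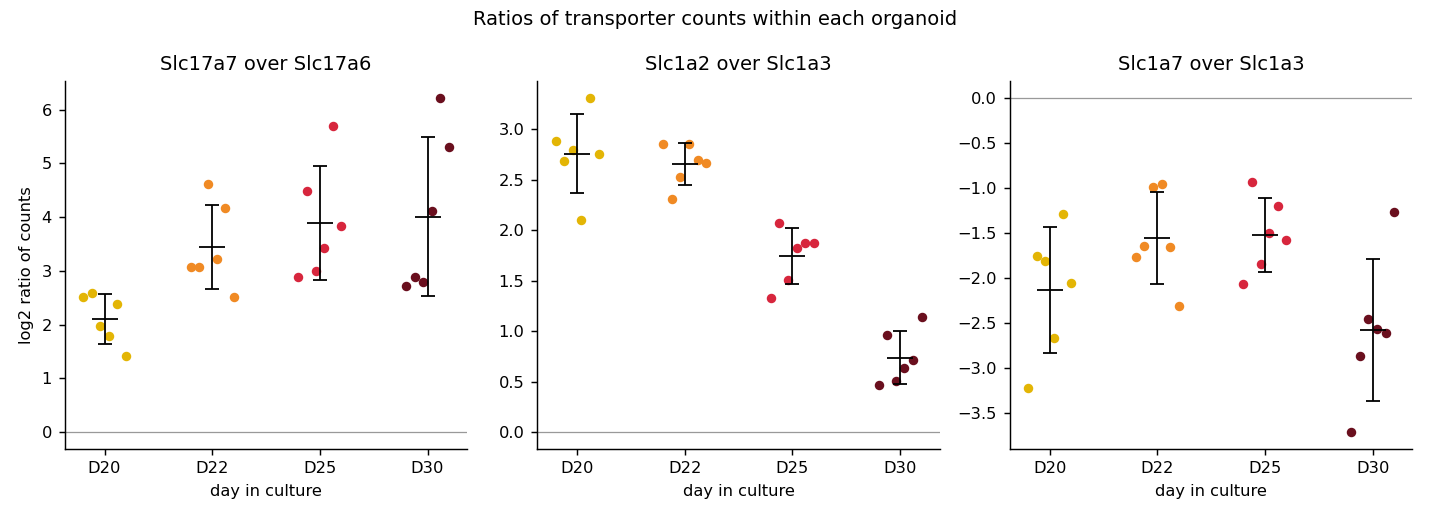
Points are the log2 ratios of counts of 2 transporters in each organoid, by day, with the mean and SD (n = 6) as bars. The Slc1a2 over Slc1a3 ratio goes from 2.76 at D20 to 0.74 at D30 without overlap between D22, D25 and D30, whereas Slc17a7 over Slc17a6 goes up from 2.11 to 3.44 by D22 and then spreads.

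Slc1a1, encoding EAAT3, a transporter of neuronal cell bodies and dendrites (chromosome 19, 28835049 to 28913960, plus strand), rose most in the first step. It lay between 8.74 and 28.5 normalized CPM at D20 (median 18.8), between 37.3 and 98.2 at D22 (median 59.8), between 86.6 and 114 at D25 (median 104) and between 89.2 and 110.8 at D30 (median 96.6). D20 and D22 did not overlap, and the D25 and D30 organoids occupied nearly the same range. The log2 fold change from D20 to D22 was 1.78 (SE 0.195, edgeR adjusted p = 4.032e-06), the largest of the 8 genes in that step. From D22 to D25 it was 0.71 (SE 0.188) with an adjusted p of 0.0122, just short of the threshold, and from D25 to D30 it was -0.07 (SE 0.186, adjusted p = 0.915). The D22 to D25 step passed with DESeq2 (adjusted p = 0.002929) and in edgeR with DESeq2 size factors (0.009859), without a filter on low counts (0.003353), with filterByExpr (0.009364) and with only the organoids of those 2 days (0.007016), as well as without D20 replicate 1 (0.003858), D20 replicate 6 (0.007103) or D22 replicate 3 (0.00139), at log2 fold changes of 0.71 to 0.88. The overlapping gene 4430402I18Rik on the opposite strand had 742 reads in all against 27048 for Slc1a1.

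Slc1a7, encoding EAAT5, which takes up glutamate at photoreceptor and bipolar cell terminals and also carries a chloride current (chromosome 4, 107968332 to 108013532, plus strand), rose over both steps to D25. It lay between 5.45 and 19.8 normalized CPM at D20 (median 16.9), between 17.1 and 60.9 at D22 (median 35.7), between 63.7 and 78.6 at D25 (median 69.4) and between 60.5 and 108.6 at D30 (median 92.3). All D25 organoids were above all D22 organoids, D22 overlapped D20, and D30 overlapped D25. The log2 fold changes were 1.21 (SE 0.24, edgeR adjusted p = 0.002325), 0.99 (SE 0.234, adjusted p = 0.005104) and 0.32 (SE 0.23, adjusted p = 0.5248) over the 3 steps. From D20 to D30 the mean went from 15.4 ± 5.06 to 88.3 ± 19.7, 5.75-fold, or 2.52 on the log2 scale (SE 0.247, adjusted p = 1.422e-09). The first call was lost without D22 replicate 3 (0.98, adjusted p = 0.0142). The second was lost, at 0.85 to 0.97 with adjusted p-values of 0.0104 to 0.019, without any 1 of D22 replicates 1, 5 and 6 or D25 replicates 2, 4 and 5, with annotated genes only (0.91, adjusted p = 0.0101) and without the highest cortex-marker organoid of each day (0.87, adjusted p = 0.0257). Its log2 ratio to Slc1a3 was -1.52 ± 0.413 at D25 and -2.58 ± 0.786 at D30, a difference of -1.06 (exact permutation p = 0.0173, adjusted p = 0.0346) that kept an adjusted p below 0.05 without D25 replicate 1, D25 replicate 3 or D30 replicate 6 and lost it without any 1 of the other 9 organoids (adjusted p up to 0.0736). Between D20 and D30 this ratio differed by -0.4464, which did not pass (exact permutation p = 0.3225, adjusted p = 0.4838).

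Slc1a5, encoding ASCT2 (chromosome 7, 16781340 to 16798274, plus strand), was the only 1 of the 8 that fell between D20 and D30. It had 11 to 58 reads per organoid and medians over the 4 days of 2.73, 2.36, 1.72 and 1.0 normalized CPM. The D20 range (1.15 to 4.06) and the D30 range (0.718 to 2.06) overlapped. The log2 fold change between them was -1.21 (SE 0.345, edgeR adjusted p = 0.006045), and no consecutive step passed (adjusted p = 0.8354, 0.3455 and 0.5427). The call was lost when low counts were not filtered (adjusted p = 0.014), with the replicate number as a block (0.011), with only the D20 and D30 organoids in the fit (0.016) and without any 1 of D20 replicates 1, 3 and 4 or D30 replicates 2, 3, 4 and 5 (0.013 to 0.0208, at log2 fold changes of -1.06 to -1.18).

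**Figure D4:**
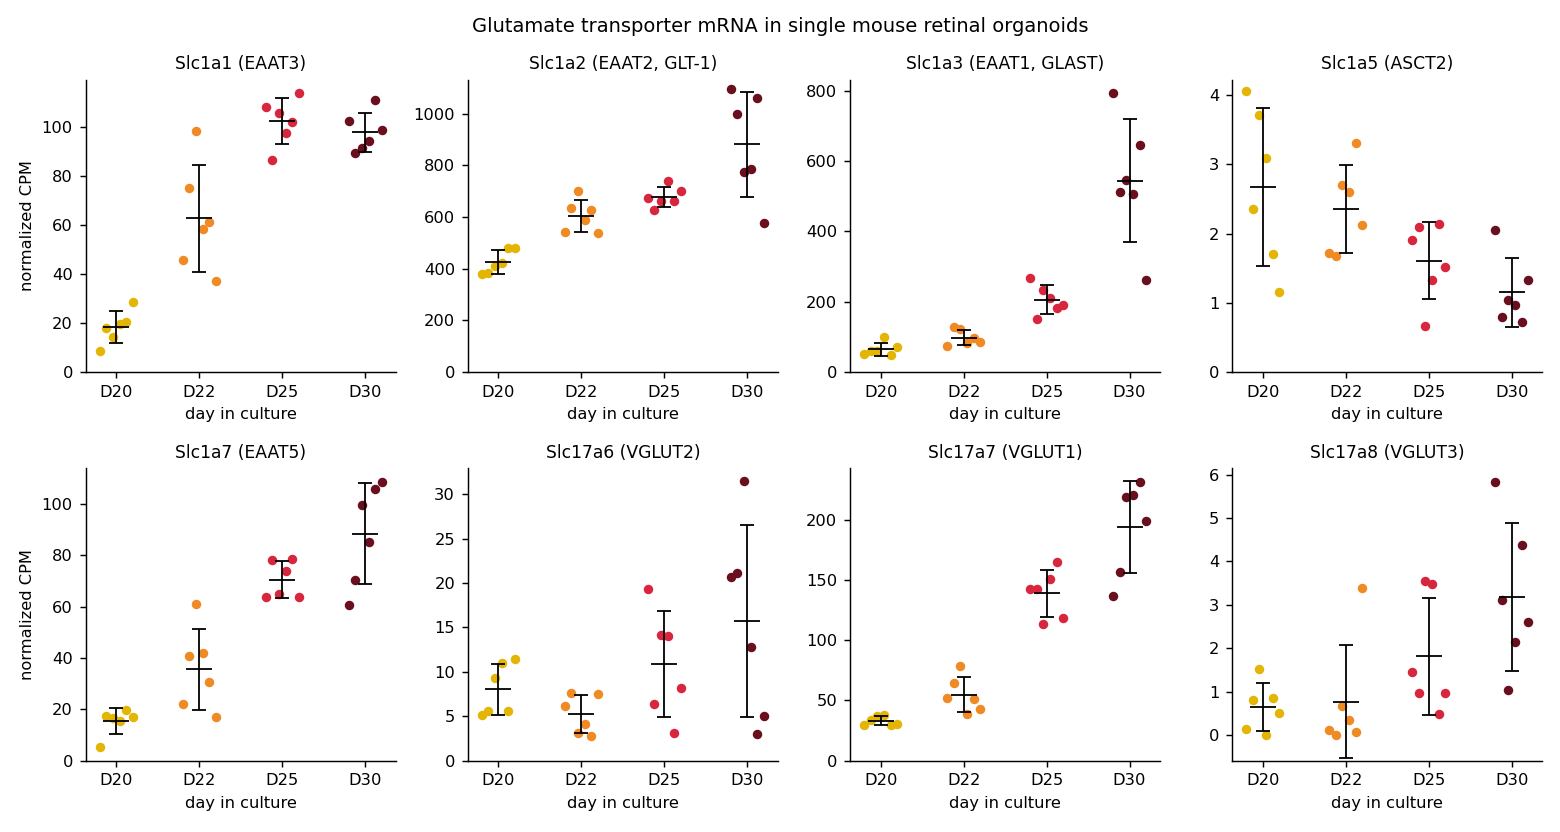
Normalized CPM of the 8 transporter genes in single organoids on D20, D22, D25 and D30, with the mean and SD (n = 6) as bars and a linear axis of its own for each gene. Every D25 organoid is above every D22 organoid for Slc17a7, Slc1a3 and Slc1a7, the D25 and D30 ranges of Slc1a1 overlap (86.6 to 114 and 89.2 to 110.8), and Slc17a6 spreads from 3.07 to 31.5 at D30.

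Per kb of exon, Slc1a2 stood first at every timepoint, with medians of 31.7, 46.3, 50.8 and 67.9 normalized CPM per kb. It was clear of the next gene until D25, and at D30 its range (43.9 to 83.4) overlapped that of Slc1a3 (30.7 to 92.9), which it exceeded in 4 of 6 organoids. At D20 Slc1a3 (6.95), Slc17a7 (5.97) and Slc1a7 (5.03) followed as neighbours with overlapping ranges, before Slc1a1 (2.28), Slc17a6 (1.39), Slc1a5 (0.653) and Slc17a8 (0.14), each of which overlapped the next. At D30 the order by median was Slc1a2, Slc1a3 (62), Slc17a7 (38.8), Slc1a7 (27.5), Slc1a1 (11.7), Slc17a6 (3.1), Slc17a8 (0.606) and Slc1a5 (0.24). Only Slc1a7 over Slc1a1 and Slc1a1 over Slc17a6 were free of overlap between neighbours there.

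Counted together, 4 of the 8 genes were higher at D22 than at D20 (Slc1a1, Slc1a2, Slc1a7, Slc17a7), against 2.56% of the 16253 annotated genes tested, and 3 of the 8 had organoids that did not overlap, against 2.36%. D22 replicate 3 mattered for this count: it was the highest D22 organoid for all 4 genes and in the summed rod markers Nrl, Nr2e3, Gnat1, Pde6b and Rcvrn (2061 normalized CPM, day median 1199), and without it only Slc1a1 passed. From D22 to D25 3 genes rose (Slc1a3, Slc1a7, Slc17a7), against 7.33% of annotated genes, all 3 without overlap, against 7.11%. Without the highest cortex-marker organoid of each day 2 of these 3 passed. From D25 to D30 Slc1a3 alone rose, against 4.55%. The count there was 2 without D30 replicate 1, when Slc17a7 joined, or without D30 replicate 6, when Slc1a2 joined.

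Over longer intervals, 6 genes rose from D22 to D30 (Slc1a1, Slc1a2, Slc1a3, Slc1a7, Slc17a6 and Slc17a7), against 24% of annotated genes, and 2 of them without overlap (Slc1a3 and Slc17a7), against 14.4%. Of these, Slc1a1 (0.64, SE 0.187, edgeR adjusted p = 0.00867) was lost without any 1 of 13 organoids (D20 replicates 2, 4 and 5, D22 replicates 1, 4, 5 and 6, D25 replicate 5 and D30 replicates 1, 2, 4, 5 and 6, at 0.53 to 0.67 with adjusted p-values of 0.0101 to 0.0288), with annotated genes only (0.51, adjusted p = 0.0294), with the replicate number as a block (0.66, adjusted p = 0.0111) and without the highest cortex-marker organoid of each day (0.49, adjusted p = 0.0362). Slc17a8 joined without D22 replicate 6 (3.67, adjusted p = 0.0003798), and Slc1a5 was lower without D30 replicate 1 (-1.24, adjusted p = 0.008707). From D20 to D30 5 rose without overlap, against 25.1% called higher and 17% higher without overlap, and Slc1a5 fell, against 16.7%. From D20 to D25 the same 5 genes rose (14.8% of annotated genes), again without overlap (13.1%). The median log2 fold change of the 8 genes was 0.55, 1.02 and 0.43 over the 3 steps and 2.36 from D20 to D30, beside -0.06, 0.10, 0.05 and 0.10 for all annotated genes. When libraries were scaled on annotated genes alone, the annotated genes called higher and lower went from 1191 and 474 to 1022 and 970 (D25 against D22), from 739 and 460 to 743 and 744 (D30 against D25) and from 3893 and 1877 to 3191 and 2980 (D30 against D22). A test across all 4 timepoints at once called 5 of the 8 genes, against 43.9% of annotated genes, and left out Slc17a6 (edgeR adjusted p = 0.0183), Slc1a5 (0.0208) and Slc17a8 (0.0283). Slc17a6 passed it without D25 replicate 5 (0.009173), D30 replicate 5 (0.002553) or D30 replicate 6 (0.004877), Slc1a5 without D20 replicate 6 (0.007421) or D30 replicate 1 (0.00761), and Slc17a8 without D22 replicate 6 (0.0004892). Slc17a6 and Slc17a8 also passed when low counts were not filtered (0.002827 and 0.008386) and without the highest cortex-marker organoid of each day (0.00179 and 0.002797), which gave 7 of the 8 genes in either setting, and Slc1a5 passed with annotated genes only (0.006781), which gave 6.

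**Figure D5:**
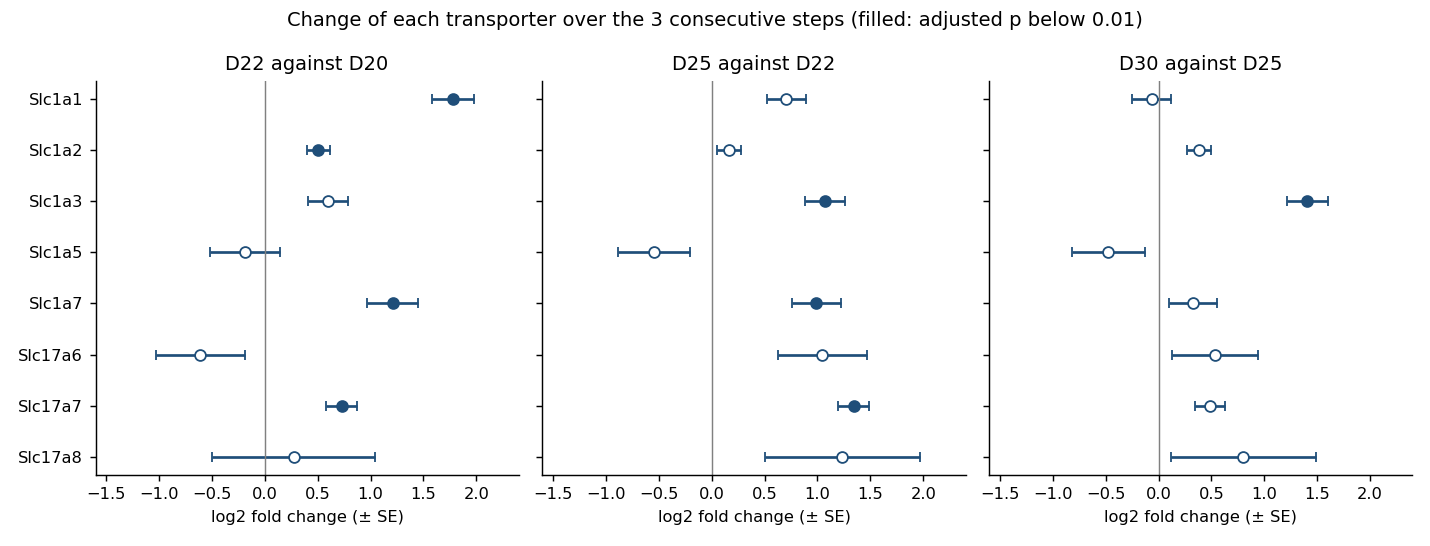
Log2 fold change (point) and SE (bar) of each of the 8 genes over the 3 consecutive steps, filled where the edgeR adjusted p was below 0.01. The filled points are 4 at D22 against D20, led by Slc1a1 at 1.78, 3 at D25 against D22, led by Slc17a7 at 1.34, and Slc1a3 alone at D30 against D25 (1.41).

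Genes that make, move or recycle glutamate and glutamine were taken as a list of 19, of which 17 were tested. From D20 to D30 9 rose and 3 fell (median log2 fold change 0.50), beside 25.1% and 16.7% of annotated genes. The largest rises were in Slc7a11, the cystine and glutamate exchanger, at 2.65 (SE 0.327, edgeR adjusted p = 1.203e-07; 4.02 ± 0.896 to 25.2 ± 17.7 normalized CPM), Slc25a12, the mitochondrial aspartate and glutamate carrier aralar, at 1.90 (SE 0.124, adjusted p = 2.667e-13; 24.6 ± 3.5 to 91.8 ± 11), and Slc38a3, a glutamine transporter, at 1.43 (SE 0.116, adjusted p = 2.998e-11). The 3 that fell were Slc25a13, the paralog of Slc25a12 also known as citrin, by 2.63 (adjusted p = 4.733e-13; 38.8 ± 3.46 to 6.29 ± 1.49), Slc1a6, the EAAT4 gene, by 2.5 (adjusted p = 2.862e-06; 8.38 ± 1.57 to 1.49 ± 1.26), and the glutamine transporter Slc38a2, by 0.89 (adjusted p = 9.173e-08). The 2 aspartate and glutamate carriers therefore moved in opposite directions, and their ranges at D20 and D30 did not overlap for either gene (20.3 to 29.6 and 76.7 to 108.3 for Slc25a12, 34.2 to 41.7 and 4.23 to 7.57 for Slc25a13).

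Mean Glul levels over the 4 days were 191 ± 22.6, 147 ± 6.61, 164 ± 17.6 and 259 ± 85.5 normalized CPM (SD, n = 6 each). It rose from D25 to D30 by 0.66 on the log2 scale (SE 0.145, edgeR adjusted p = 0.003513), while D30 against D20 missed the threshold (0.44, SE 0.144, adjusted p = 0.0155). At D30 it ran from 127 to 394, and D30 replicate 6, low in Slc1a3 and Slc1a2, was its lowest organoid too. D30 against D20 passed without that organoid (0.58, adjusted p = 5.983e-05), with DESeq2 (0.51, adjusted p = 0.004835) and with DESeq2 size factors in edgeR (0.51, adjusted p = 0.007009). The D25 to D30 call was lost without D25 replicate 2 (0.62, adjusted p = 0.0125) or D30 replicate 1 (0.52, adjusted p = 0.0138), with only the organoids of the 2 days (0.65, adjusted p = 0.0331) and without the highest cortex-marker organoid of each day (0.69, adjusted p = 0.0121).

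Vesicle loading also needs the proton pump, and of 9 genes of the vesicular ATPase and its chloride partner Clcn3, all tested, 7 rose from D20 to D30 (median log2 fold change 0.88), beside 25.1% of annotated genes. Atp6v1g2, a subunit of neuronal V-ATPase, rose by 1.94 (SE 0.266, edgeR adjusted p = 7.127e-07; 4.3 ± 1.46 to 16.5 ± 3.98 normalized CPM) and Clcn3 by 1.21 (SE 0.0787, adjusted p = 2.667e-13; 388 ± 15.6 to 894 ± 94.8). The catalytic subunit gene Atp6v1a rose by 1.05 (adjusted p = 7.747e-11) and Atp6v1b2 by 0.98 (adjusted p = 2.082e-11). With the highest cortex-marker organoid of each day left out, 11 of the glutamate genes and 6 of the pump genes passed.

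The genes whose log2 levels followed each transporter most closely over the 24 organoids were read from 10909 annotated genes, as a description, since all values share day and library. Slc1a7 was close to Impg1, a matrix protein around photoreceptors (Pearson r = 0.987, Spearman rho = 0.95), and Rgs20 (0.983 and 0.946), and after the mean of each day was taken out r was still 0.924 and 0.906. Slc1a1 was closest to Pcdh15, a photoreceptor and hair cell cadherin (r = 0.984, rho = 0.847), Nt5e (0.982 and 0.828) and Slc44a1 (0.977 and 0.892), with r = 0.898, 0.877 and 0.784 within days. Slc17a7 was closest to Ndrg3 (r = 0.983, rho = 0.96), C2cd2l (0.98 and 0.949) and Gnb1, the transducin beta subunit of rods (0.98 and 0.947), and within days these fell to 0.693, 0.626 and 0.64.

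Slc1a3 was closest to Cpe (r = 0.983, rho = 0.974), Mmd2 (0.972 and 0.974) and Tspan7 (0.972 and 0.937), with r = 0.803, 0.841 and 0.729 within days. Slc1a2 shared Mmd2 as its closest gene (r = 0.947, rho = 0.924), followed by Zhx3 (0.938 and 0.934) and Gpm6b, a glial membrane protein (0.938 and 0.944), with r = 0.836, 0.842 and 0.861 within days. Over all organoids r was lower for Slc17a6 and for the 2 low genes. Slc17a6 was closest to Pcdh11x (r = 0.889, rho = 0.906), Usp29 (0.82 and 0.795) and Arl5a (0.813 and 0.811), with r = 0.876, 0.79 and 0.769 within days, above the within-day values of Slc17a7. Slc17a8 was closest to Acaa2 (r = 0.831, rho = 0.847), Scfd1 (0.791 and 0.794) and the Müller glia water channel Aqp4 (0.79 and 0.875), with r = 0.691, 0.569 and 0.642 within days. Slc1a5 was closest to Etv3 (0.854 and 0.847), Trim66 (0.845 and 0.828) and Bsdc1 (0.801 and 0.785), with r = 0.729, 0.744 and 0.598 within days.

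The other marker lists placed these levels among the cells of the MROs. Summed rod markers had medians of 534, 1199, 2285 and 2718 normalized CPM in the order of the days. D30 replicate 1, lowest of its day in rod markers (1608), was also lowest in Slc17a7 (137) and Slc1a7 (60.5). The same organoid was lowest of its day in the summed bipolar markers given below (88.96). The highest D30 organoids were different ones. Replicate 3 was highest in rod (2837.9) and bipolar markers (205.6), replicate 5 in Slc17a7 (230.9) and replicate 6 in Slc1a7 (108.6). Within the rod list Gnat1 (log2 fold change 4.81, edgeR adjusted p = 2.778e-11) and Rcvrn (1.51, adjusted p = 0.0001616) rose from D25 to D30. Nrl (-0.25, adjusted p = 0.463), Nr2e3 (-0.72, adjusted p = 0.06924) and Pde6b (-0.0096, adjusted p = 0.9894) did not pass in that step. Summed bipolar markers (Vsx1, Grm6, Trpm1, Scgn, Cabp5) had medians of 5.69, 6.89, 35.5 and 165, summed amacrine markers (Gad1, Gad2, Slc6a9, Tfap2a, Tfap2b) of 104, 150.3, 227 and 150.0, and summed cone markers (Arr3, Gnat2, Opn1sw, Pde6h) of 27.1, 28.0, 24.5 and 28.8, with Pde6h at 3 reads or fewer in every organoid up to D25. Within the amacrine list Tfap2b (log2 fold change -1.88, edgeR adjusted p = 0.000118), Tfap2a (-1.48, adjusted p = 0.00923) and Slc6a9 (-0.69, adjusted p = 0.004849) were lower at D30 than at D25. Gad1 (0.65, adjusted p = 0.4557) and Gad2 (0.49, adjusted p = 0.5297) did not pass. Within the cone list Opn1sw was lower at D30 than at D20 (log2 fold change -2.88, edgeR adjusted p = 5.24e-08), while Arr3 rose by 1.22 (adjusted p = 0.001582) and Gnat2 by 0.90 (adjusted p = 0.004985). The part of these cells in any transporter level was not tested.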

How the data were processed

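RNA of single MROs was depleted of ribosomal RNA, and strand-specific libraries were sequenced. The authors demultiplexed with bcl2fastq 2.20, trimmed with cutadapt 1.5, aligned with HISAT2 to GRCm38 (mm10), assembled transcripts with StringTie 1.3.3 and deposited raw counts per gene from HTSeq 0.6.1. The strand setting is not given in the sources used here, so reads of overlapping genes on opposite strands may be mixed. Of 126602 listed features (46603 annotated genes and 79999 assembled loci), those with a base mean of at least 10 were kept (16253 annotated genes and 30696 loci), and the 5 summary lines of each table were left out. TMM scaling and quasi-likelihood tests were run in edgeR 4.0.16 (R 4.3.3) with all 24 organoids and timepoint as the only term, at an adjusted p below 0.01. DESeq2, the authors' tool, was run here in version 1.42.0 as an alternative, as were other scalings, filters and sample sets, and the test code was tested on simulated data. Levels per kb divide by the exon length of GENCODE. Ratios add 0.5 counts to each gene and were compared with exact two-sided permutation tests, adjusted over 12 tests at 0.05. These tests were written in Python 3.11.15 with numpy 2.4.6. Likeness used log2 normalized CPM with a prior count of 2 and genes averaging 100 normalized counts or more. Promoter sequences came from RefSeq (GRCm38.p6), with motifs searched on both strands; the GC box and TATA box were added after the other 3 motifs gave no match.

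The 8 genes, the lists and the tests were chosen with earlier results of these data known. Named in the text were all 8 genes, the genes of the other 2 lists with the 4 largest called rises and falls between D20 and D30, Glul, and for each transporter the 3 genes with the highest r. Some genes are not reported here and were left out of the marker sums. Clcn3, Atp6v1a and Atp6v1b2 fell under the rule only when it was read for the pump list alone. Read floors cover counting error only, while SE and SD include the spread between organoids of the 1 experiment. Replicate numbers of different timepoints were checked and were not used as pairs in the main tests. The median correlation of deviations was 0.0102 over 36 pairs with the same number and 0.00167 over 180 others. Of the 24 organoids, 8 were closest to one of their own number, and whether this is more than by chance was not tested.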

Additional observations from a re-analysis of the deposited data

Results flagged for a closer look

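In 2 of 32 groups of 6 organoids (8 genes at 4 timepoints) 1 organoid stood apart from the others by Dixon's criterion at 95%, and chance gives about 1 in 20. Slc1a7 was 5.45 normalized CPM in D20 replicate 1, with the next lowest organoid at 15.4 (gap over range 0.694). Slc17a8 was 3.39 normalized CPM in D22 replicate 6, with the next highest at 0.675 (gap over range 0.801). D20 replicate 1 was also the lowest D20 organoid in the summed rod markers (299 normalized CPM, day median 534) and in Slc1a1 (8.74), and D22 replicate 6 was the highest D22 organoid in the summed cortex type neuron markers (12.2) and the lowest in Slc1a1 (37.3) and Slc1a7 (17.1).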

How the results depend on the processing

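Under DESeq2, DESeq2 size factors, other filters, annotated genes only, a replicate block, compared timepoints only and the left-out cortex-marker organoids (an alternative chosen after seeing the data), every count of called genes stayed within 1.5 times its value. With the replicate block 4, 3 and 1 of the 8 genes were called over the 3 steps and 5 from D20 to D30, where Slc1a5 was lost; it also lost Slc1a1 from D22 to D30 and changed no other call of the 8 genes. The block turned the small Slc17a8 difference between D22 and D20 to -0.15, and leaving out the cortex-marker organoids to -1.42. Leaving out 1 organoid gave 1 to 4 called genes for D22 against D20 (1 without D22 replicate 3) and 1 to 2 for D30 against D25 (2 without D30 replicate 1 or 6), and the Slc17a8 difference between D22 and D20 ran from -1.36 to 0.73. Among the ratios, Slc17a7 over Slc17a6 ran from -0.33 to 0.48 for D30 minus D25, Slc1a2 over Slc1a3 from -0.24 to 0.0063 for D22 minus D20, and Slc1a7 over Slc1a3 from -0.12 to 0.15 for D25 minus D22 and from -1.32 to -0.83 for D30 minus D25, where 9 of 12 tests no longer passed. Fewer organoids were in those tests, and other causes were not tested. Adding 5 counts in place of 0.5 changed no call of a ratio. Scaling on annotated genes alone moved the median change of annotated genes for D30 against D22 from 0.14 to -0.004. The test over all timepoints was not run with DESeq2 or with compared timepoints only. Depth limits Slc17a8 and Slc1a5, with at most 102 and 58 reads.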
